A study of Mus musculus with 2 samples.

Results

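Cytosolic ribosomal protein genes encode the proteins that, together with ribosomal RNA, build the small and the large subunit of the ribosome in the cytoplasm. Members were chosen by symbol. A symbol had to read Rpl or Rps followed by digits and at most a single a, l or x, or be Rplp0, Rplp1, Rplp2 or Rpsa. Pseudogene symbols with -ps and the Rps6k kinases were left out. This gave 80 genes of the 31055 counted, of which 31 belong to the small and 49 to the large subunit.

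Ribosomal proteins are made in step with each other, and surplus copies that find no place in a ribosome are degraded. Many of their mRNAs begin with a run of pyrimidines, the terminal oligopyrimidine (TOP) tract, through which mTORC1 signalling and the RNA-binding protein LARP1 raise or lower their translation as a group. In the intestinal crypt, stem cells and their dividing daughters grow and divide continuously, whereas enterocytes, goblet cells and hormone-making enteroendocrine cells leave the cycle and turn to absorption or secretion.

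The cells came from small-intestinal crypts of 1 ChgaCreER-tdTomato::Rosa26LSL-eYFP mouse that had received 1 mg of tamoxifen on each of 5 days. In this mouse the Chga promoter, which is active in enteroendocrine cells, drives a tamoxifen-dependent Cre recombinase, and Cre switches on eYFP at the Rosa26 locus. A sort of eYFP+ cells and a sort of bulk epithelium were tagged with 4 hashtag antibodies and sequenced as 1 droplet-based 3′ gene expression library with 1 hashtag library. The labels give neither the age of the mouse nor which hashtag marks which sort. All classes below share this mouse, genotype and treatment and were told apart by transcripts. They also differed by hashtag: tags 1 and 2 held 37.2% of cycling cells, 57.5% of Neurog3 progenitors, 81.8% of Tph1 cells, 34.9% of goblet cells, 21.6% of enterocytes and 10.5% of lymphocytes, against 31.6% of Lgr5 cells. Class and hashtag pair are thus partly tied, and values within a pair stand beside the Tph1 result.

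Classes were set by counts of unique molecular identifiers (UMIs, 1 per captured RNA molecule). Cycling cells had at least 10 UMIs of Mki67 and Top2a together (637 cells). Endocrine progenitors had at least 3 UMIs of Neurog3 (47 cells), and enterochromaffin cells, the serotonin-making enteroendocrine cells, at least 5 UMIs of Tph1 (347 cells). Goblet cells had at least 0.5% of their UMIs from Agr2, Fcgbp and Muc2 (129 cells), enterocytes at least 2 UMIs of Alpi (134 cells) and lymphocytes at least 2 UMIs of Ptprc (95 cells). Stem cells had at least 3 UMIs of Lgr5 (497 cells), and every other class was set against them. A cell could meet several rules: 1230 cells met exactly 1, 313 met more and 792 met none. Marker genes that the rules did not use followed the names, since all 8 listed markers of each epithelial class and all 10 of the lymphocytes were at least 1.5 times higher in their own class than in cells of the other classes.

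The table held 2335 cells with 51238250 UMIs, at 1002 to 129719 UMIs per cell (median 19078). Ribosomal protein genes held 11851387 of these UMIs, or 23.1%. With 1 library and 1 mouse, cells are not replicates, so no test was possible and no p-value was computed. Shares carry exact 95% Clopper-Pearson intervals, which cover counting error only and are narrow at this depth. A share is relative, so fewer ribosomal protein mRNAs per cell and more of other mRNAs cannot be told apart.

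Stem cells had the highest ribosomal protein share of the 7 classes and enterochromaffin cells the lowest. The summed share was 24.6% (24.5 to 24.6) of UMIs in cycling cells, 21.9% (21.8 to 21.9) in Neurog3 progenitors, 15.7% (15.6 to 15.7) in Tph1 cells, 20.7% (20.7 to 20.8) in goblet cells, 18.3% (18.2 to 18.3) in enterocytes and 23.3% (23.2 to 23.4) in lymphocytes, against 26.7% (26.6 to 26.7) in Lgr5 cells. As log2 ratios over Lgr5 cells these were -0.12, -0.29, -0.77, -0.36, -0.54 and -0.19 in the same order of classes. The order from low to high was therefore Tph1, enterocyte, goblet, Neurog3, lymphocyte, cycling and Lgr5. Counting intervals of neighbours in this order did not overlap, but the spread between cells was far wider than the intervals.

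Median shares per cell were 24.9% in cycling cells, 20.6% in Neurog3 progenitors, 9.92% in Tph1 cells, 20.4% in goblet cells, 18.9% in enterocytes and 24.4% in lymphocytes, against 27.9% in Lgr5 cells. The middle 50% of cells spanned 22.8 to 26.5% in cycling cells, 11.2 to 25.9% in Neurog3 progenitors, 8.53 to 17.7% in Tph1 cells, 17.2 to 23.0% in goblet cells, 16.4 to 20.5% in enterocytes and 19.9 to 30.5% in lymphocytes, against 26.0 to 29.9% in Lgr5 cells. The Neurog3, Tph1 and lymphocyte classes were the widest, and the Tph1 values formed a larger low group and a smaller high one. In UMIs, the median cell held 7816 ribosomal protein UMIs among cycling cells, 3399 among Neurog3 progenitors, 1215 among Tph1 cells, 4224 among goblet cells, 5133 among enterocytes and 735 among lymphocytes, against 6519 among Lgr5 cells. Depth moved with class too, from a median of 2907 UMIs in lymphocytes and 12503 in Tph1 cells to 31975 in cycling cells and 24495 in Lgr5 cells. The share differed with depth in Neurog3 progenitors and in Tph1 cells, and the part of depth in this was not tested. In Neurog3 progenitors the median was 11.3% under 10000 UMIs (7 cells), 17.7% at 10000 to 19999 (22 cells), 22.7% at 20000 to 39999 (11 cells) and 24.5% at 40000 or more (7 cells). In Tph1 cells the median share was 9.03% under 10000 UMIs (120 cells), 9.38% at 10000 to 19999 (111 cells), 18.8% at 20000 to 39999 (88 cells) and 20.3% at 40000 or more (28 cells). Lgr5 cells of the same depths had 27.7, 29.4, 27.1 and 27.0%. Enterocytes had 18.8% at 20000 to 39999 UMIs and 19.9% at 40000 or more, so the deeper Tph1 cells were close to enterocytes, and Tph1 cells were below Lgr5 cells at every depth.

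**Figure D1:**
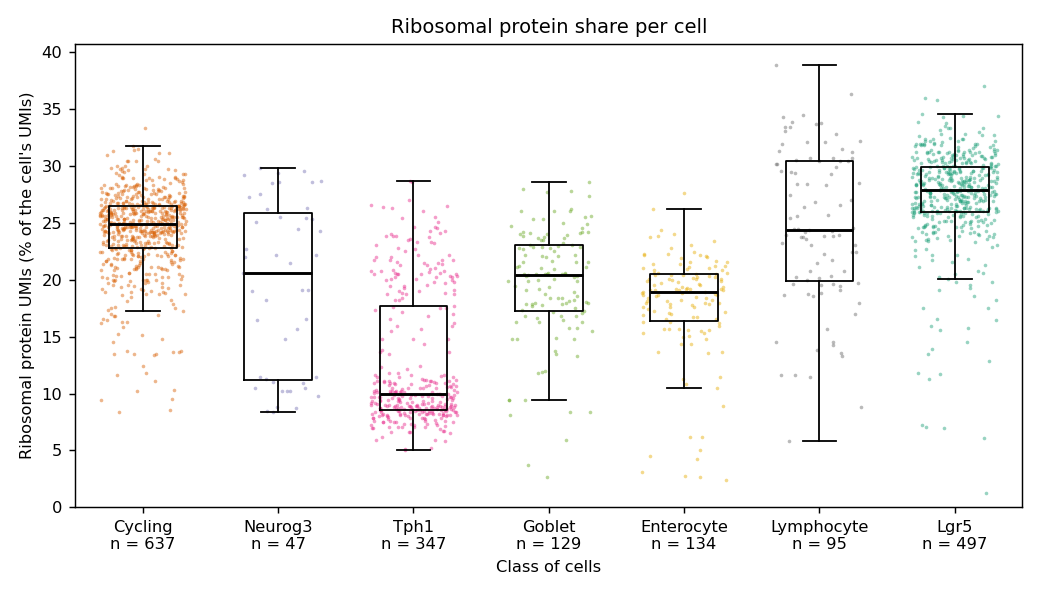
Ribosomal protein UMIs as a percent of all UMIs of a cell, for the 6 classes and, at the right, Lgr5 cells; each point is 1 cell, boxes give the quartiles and the median, and whiskers reach the last cell within 1.5 box lengths. Most Tph1 cells lie near their median of 9.92%, while Lgr5 cells lie around 27.9%; cells that meet several rules appear in each class.

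Small and large subunit genes kept nearly the same balance. Small subunit genes gave 44.2% of ribosomal protein UMIs in cycling cells, 43.9% in Neurog3 progenitors, 43.0% in Tph1 cells, 43.5% in goblet cells, 43.8% in enterocytes and 45.03% in lymphocytes, against 44.4% in Lgr5 cells. The balance thus stayed within 43.0 to 45.03% while the total share ranged from 15.7 to 26.7%.

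The members were then compared gene by gene, as UMIs per 1000000 UMIs (CPM) summed over the cells of a class with 10 CPM added. Of the 80 genes, 77 had at least 50 UMIs over the 7 classes. Rpl10l and Rpl39l, testis-expressed copies of Rpl10 and Rpl39, had 0 UMIs, and Rpl3l, the striated muscle copy of Rpl3, had 3. A gene was counted as higher or lower when the class and Lgr5 cells differed by at least 1.5 times. The same was counted over all 11986 genes with at least 50 UMIs.

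In Tph1 cells 67 of 77 ribosomal protein genes were lower by that fold and 0 were higher, where 5.83% of all genes were lower and 18.6% higher. At a fold of 2, 4 were lower, against 1.08% of all genes. In enterocytes 29 of 77 were lower and 0 higher, against 15.3% of all genes lower and 11.9% higher. The enterocyte count and its background depended on the processing. With a pseudocount of 1 CPM, 29 of 77 were again lower, but 32% of all genes were lower too. The excess of members over the background was thus small at that setting. Among genes with at least 500 UMIs, 29 of 77 were lower, against 20% of all such genes. In cells of a single rule 46 were lower, against 16.9% of all genes, and in cells of 10000 to 40000 UMIs 55 were, against 20.9%. With mitochondrial and leading genes out of the total 11 of 77 were lower. That count was not above the background of 16.6% of all genes. At a fold of 2, 0 were lower, against 5.06% of all genes. In lymphocytes 5 of 77 were lower and 1 higher, against 20.4% of all genes lower and 19.2% higher. No member passed the fold in the other 3 classes. The background there was 2.11% of genes higher and 0.943% lower in cycling cells, 11.8% higher and 3.06% lower in Neurog3 progenitors, and 8.44% higher and 5.92% lower in goblet cells. In the shallow lymphocyte class 1 UMI was worth 2.58 CPM, so genes near the minimum carry wide counting error there.

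The medians over the 77 members give the same picture without a threshold. The median log2 ratio over Lgr5 cells was -0.12 in cycling cells, -0.28 in Neurog3 progenitors, -0.73 in Tph1 cells, -0.37 in goblet cells, -0.55 in enterocytes and -0.19 in lymphocytes. Over all 11986 genes the medians were 0.022, 0.086, 0.10, -0.048, -0.10 and -0.060 in the same order. All 77 members were below 0 in Neurog3 and Tph1 cells, 76 in enterocytes, 75 in goblet cells, 74 in cycling cells and 62 in lymphocytes. The share of all genes below 0 was not counted, so these counts have no background to be read against. Nearly all members were thus below their Lgr5 level in the 5 epithelial classes, and fewer in lymphocytes. Of the 47 Neurog3 progenitors, 23 also met the Tph1 rule. In the 12 that met no other rule, members ranged from -0.52 to 0.14 over Lgr5 cells of a single rule, so some were above 0.

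**Figure D2:**
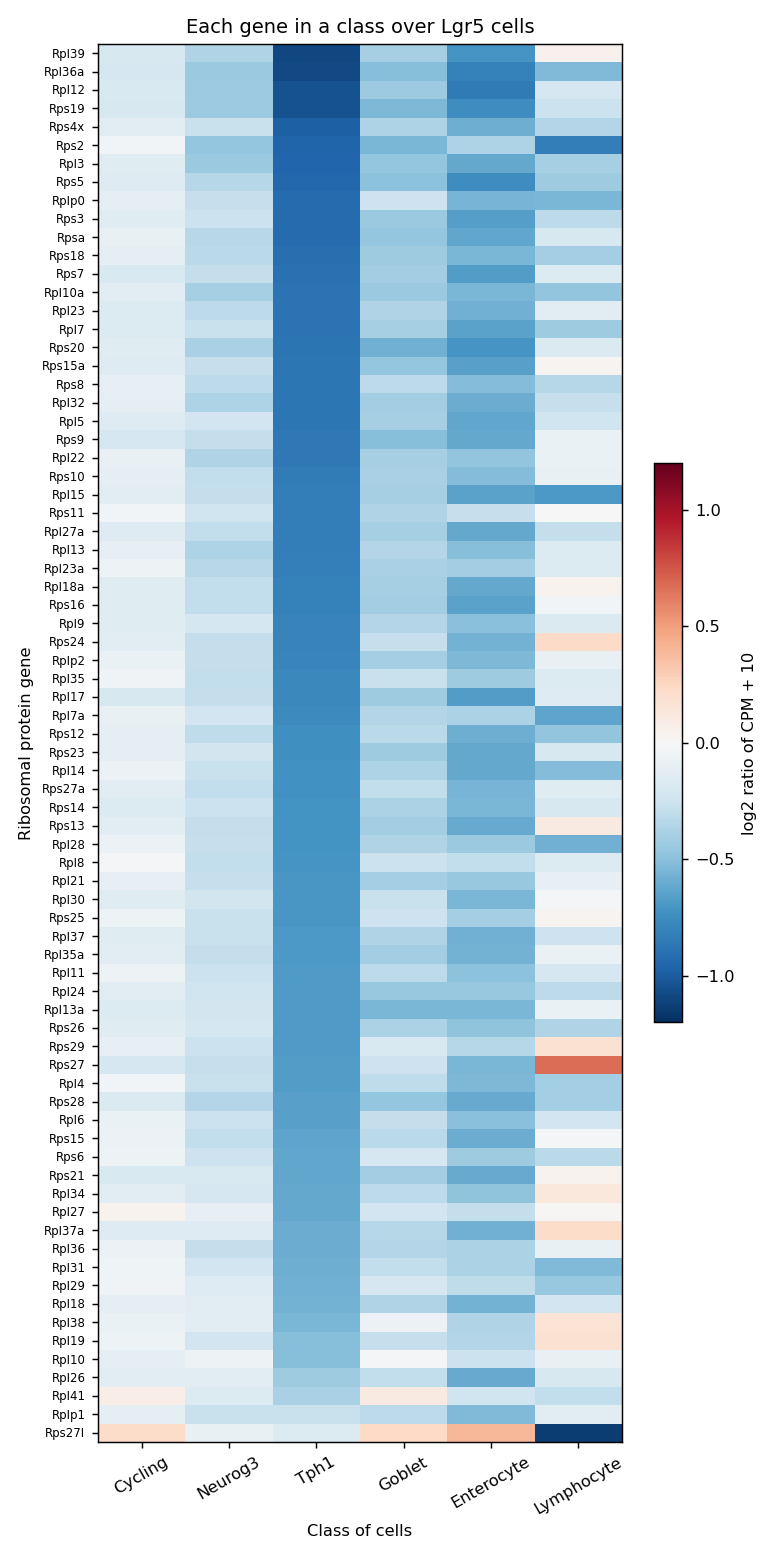
Log2 ratio of CPM + 10 of all but 1 of the 77 ribosomal protein genes with at least 50 UMIs in the 6 classes over Lgr5 cells, ordered by the ratio in Tph1 cells (blue lower, red higher than in Lgr5 cells). The Tph1 column runs from -1.09 for Rpl39 to -0.17 for Rps27l; Rps27l and Rps27 take opposite colours in enterocytes and lymphocytes.

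The bases around the members' transcription starts were read from RefSeq promoter windows (build GRCm38.p6), which held 72 starts of 60 of the 80 members. These include starts of Rpl10l, Rpl39l and Rpl3l, the members with almost no UMIs. Whether any motif bears on the mRNA shares above was not tested. The pyrimidine motifs CTTTC and CTTCC were searched on the sense strand within 15 bases on either side of the start; the letters of the motifs can share bases where both occur. CTTTC stood there at 17 of 72 starts of members (23.6%), against 4.05% of the 32851 starts in the table and 3.59% of the 12218 starts of genes with at least 50 UMIs. CTTCC stood at 18.1% of the members' starts, against 6.63% of all starts and 8.73% of the starts of genes with at least 50 UMIs. On the antisense strand CTTTC stood at 2.78% of the members' starts and 3.60% of all starts, so for CTTTC the excess was in the sense direction. CCGGAA, the core of the ETS factor motif, was found on the sense strand of the 300-base window at 30.6% of the members' starts, against 8.27% of all starts and 15.5% of the starts of genes with at least 50 UMIs; its antisense shares were 22.2%, 8.74% and 16.2%.

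Windows of 50 bases, from 25 before to 25 after the annotated start, are shown 5′ to 3′ on the gene's own strand for members whose values are described below, with CTTTC and CTTCC in capitals. Those with a motif are Rps27 (chr3:90213624-90213673, minus strand), Rpl15 (chr14:18270962-18271011, minus), Rpl7a (chr2:26910782-26910831, plus), Rpl12 (chr2:32961687-32961736, plus) and Rpl36a (chrX:134585629-134585678, plus). Those without are Rps27l (the first of its 2 annotated starts, chr9:66946061-66946110, plus), Rpl41 (chr10:128549144-128549193, minus), Rpl39 (chrX:37085198-37085247, minus) and Rps2 (chr17:24720038-24720087, plus).
Rps27: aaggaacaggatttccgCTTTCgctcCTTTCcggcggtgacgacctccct
Rpl15: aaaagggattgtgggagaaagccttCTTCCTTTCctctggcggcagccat
Rpl7a: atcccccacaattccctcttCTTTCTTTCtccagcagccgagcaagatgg
Rpl12: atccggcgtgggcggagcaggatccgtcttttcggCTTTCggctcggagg
Rpl36a: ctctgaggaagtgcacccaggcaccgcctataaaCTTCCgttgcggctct
Rps27l: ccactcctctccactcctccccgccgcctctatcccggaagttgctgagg
Rpl41: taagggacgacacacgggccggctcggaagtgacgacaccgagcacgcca
Rpl39: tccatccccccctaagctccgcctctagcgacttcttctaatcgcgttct
Rps2: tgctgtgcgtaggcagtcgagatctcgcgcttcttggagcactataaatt
A match is a description of these letters only, and members with and without a match occur among both the lowest and the highest ratios below.

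Enterochromaffin cells differed most from stem cells in the family's share. The share was close in cells with 0 and with 1 to 4 Tph1 UMIs, and lower in the bins from 5 UMIs up. Its median was 25.6% in the 1754 cells with 0 Tph1 UMIs and 24.3% in the 234 cells with 1 to 4, then 10.1% with 5 to 9 (50 cells), 10.2% with 10 to 29 (156 cells), 9.72% with 30 to 99 (135 cells) and 7.19% with at least 100 (6 cells). The largest step of the median lay between the bin of 1 to 4 and that of 5 to 9 UMIs. Median depth also differed across this step, at 23123 UMIs below it and 6409 UMIs above it. In the 3 bins from 10 Tph1 UMIs up it was 11318, 15081 and 30916 UMIs. The part of depth in the step was not tested. The summed share, in which deep cells weigh more, was 23.8% at 1 to 4 UMIs, then 17.6, 17.0, 14.5 and 7.45% in the 4 bins from 5 UMIs up, so it was also lower with more Tph1 above the step. By Chga, the granin that drives the Cre, the medians were 25.7% at 0 UMIs, 25.4% at 1 to 4, 19.9% at 5 to 19, 10.5% at 20 to 99 and 9.49% at 100 or more. The low share was not limited to Tph1 cells: 27 cells with at least 20 Chga and under 5 Tph1 UMIs had a median of 9.28%, at a median depth of 3068 UMIs.

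The Tph1 class was uneven. Under 15% of UMIs from ribosomal protein genes, a line drawn after the values were seen, lay 247 of its 347 cells, and 16 cells lay between 13 and 17%. Under the same line lay 20 of 637 cycling cells, 16 of 47 Neurog3 progenitors, 19 of 129 goblet cells, 21 of 134 enterocytes and 11 of 95 lymphocytes, against 12 of 497 Lgr5 cells. Cells at or above the line carried other signals. Of the 100 such Tph1 cells, 66 met another rule and 77 lay in the top 6% of all cells by Scrublet doublet score; of the 247 below the line, 28 met another rule and 2 lay in that top 6%. Median depth was 30518 UMIs above and 10554 below, and Olfm4, a crypt stem cell gene, stood at 3427 CPM above and 249 CPM below, against 8334 CPM in Lgr5 cells. Median mitochondrially encoded UMIs were 2.79% below the line and 5.67% above it, against 7.52% in Lgr5 cells. The part of doublets and of the mitochondrial share in this split was not tested.

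In cells that met a single rule, the difference was larger. The 253 cells of the Tph1 rule alone had a summed share of 11.8% (median 9.09%), against 27.5% (median 29.3%) in the 295 cells of the Lgr5 rule alone, a log2 ratio of -1.22. Here 75 of 77 members were lower by 1.5 times, where 10.4% of all genes were, and 60 were lower by 2 times, where 3.92% of all genes were. The median over members was -1.16, and over all genes 0.15. Without the top 6% by doublet score the log2 ratio of the share was -1.26. Within tags 1 and 2 the Tph1 cells had a median of 9.45% (284 cells), against 26.9% in Lgr5 cells (157 cells), so the difference was present within that hashtag pair. Within tags 3 and 4 only 11 cells met the Tph1 rule; their median was 20.5%, against 28.3% in Lgr5 cells (120 cells). The 52 Tph1 cells with unassigned tags had a median of 17.1% and a summed share of 18.0%, against 28.3% and 27.7% in Lgr5 cells (220 cells); enterocytes with unassigned tags had a summed share of 17.6%. Tph1 cells were thus below Lgr5 cells in each tag group, but by summed share below enterocytes only in tags 1 and 2.

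Rpl39, a small large-subunit protein at the exit tunnel, had 1321 CPM in Tph1 cells and 2822 CPM in Lgr5 cells, a log2 ratio of -1.09. Rpl36a followed with 739 CPM in Tph1 cells and 1572 CPM in Lgr5 cells (-1.08). Rps19, a small subunit protein whose loss of a copy causes Diamond-Blackfan anaemia in humans, had 2093 CPM in Tph1 cells and 4336 CPM in Lgr5 cells (-1.05). At the other end stood Rps27l at 409 CPM in Tph1 cells against 461 CPM in Lgr5 cells (-0.17), and Rpl41, the smallest ribosomal protein, at 2112 CPM against 2777 CPM (-0.39). In cells of a single rule these ratios were -1.76 for Rpl39, -1.78 for Rpl36a, -1.75 for Rps19, -0.24 for Rps27l and -0.63 for Rpl41, so the low end moved further down than the high end.

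Rplp1 set itself apart from its partners in enterochromaffin cells. Rplp0, Rplp1 and Rplp2 form the P stalk of the large subunit, which recruits elongation factors, with Rplp0 as its base. Rplp1 had 4449 CPM in Tph1 cells and 5358 CPM in Lgr5 cells, a log2 ratio of -0.27. Rplp0 had 3076 CPM in Tph1 cells and 5840 CPM in Lgr5 cells (-0.92), and Rplp2 had 1689 CPM in Tph1 cells and 2941 CPM in Lgr5 cells (-0.80). In cells of a single rule the ratios were -0.39 for Rplp1, -1.49 for Rplp0 and -1.29 for Rplp2. Within the family, Rplp1 made up 2.84% (2.81 to 2.87) of ribosomal protein UMIs in Tph1 cells and 2.01% (1.996 to 2.02) in Lgr5 cells, and 3.57% in cells of the Tph1 rule alone. It was between 2.02 and 2.10% in cycling cells, Neurog3 progenitors, goblet cells, enterocytes and lymphocytes. Parts of these classes lay outside that range. Neurog3 progenitors with at least 20 Chga UMIs had 2.42% (2.30 to 2.55), and those with fewer had 1.91% (1.85 to 1.975). Among lymphocytes, split below, T cells had 2.58% (2.36 to 2.81) and B cells 1.92% (1.80 to 2.04). The Rplp1 share of the family went up along the Tph1 bins, at 1.99% with 0 Tph1 UMIs, 2.01% with 1 to 4, 2.59% with 5 to 9, 2.76% with 10 to 29 and 2.98% with 30 or more.

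**Figure D3:**
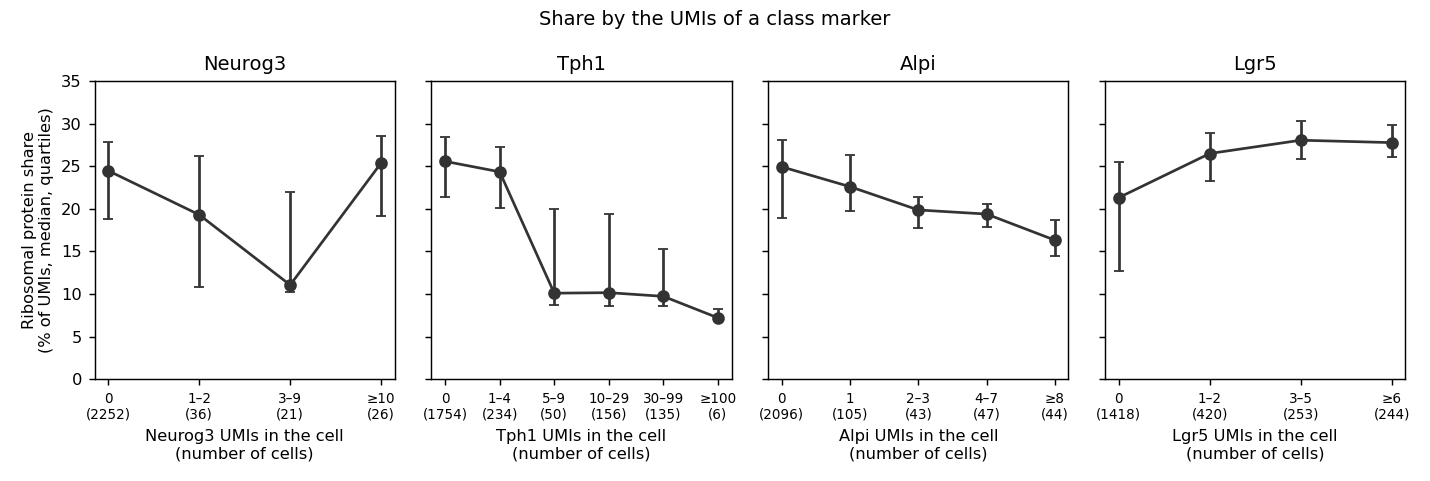
Median ribosomal protein share per cell, with quartiles as bars, over all 2335 cells grouped by their UMIs of Neurog3, Tph1, Alpi and Lgr5; cell numbers stand in brackets. The share steps down between 1 to 4 and 5 to 9 Tph1 UMIs, declines along Alpi to 16.3%, and is lower at 3 to 9 than at 10 or more Neurog3 UMIs.

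Endocrine progenitors covered both low and high shares. Neurog3, the transcription factor that starts the endocrine programme, was at 3 to 9 UMIs in 21 cells with a median share of 11.1% and at 10 or more UMIs in 26 cells with a median share of 25.4%. Progenitors with at least 20 Chga UMIs had a median of 11.3% (20 cells), and those with fewer had 25.4% (27 cells). These subgroups were defined after earlier results were known, 23 of the 47 progenitors also met the Tph1 rule, and 11 lay in the top 6% by doublet score. The cells with few Chga UMIs thus lay near the cycling class, and those with many near the Tph1 class. Among members, Rps2, a small subunit protein near the mRNA entry channel, was the lowest in the class at 3483 CPM in Neurog3 progenitors and 4809 CPM in Lgr5 cells (-0.46), followed by Rpl3 (-0.45) and Rpl36a (-0.44). Rpl10 (-0.065), Rps27l (-0.091) and Rpl27 (-0.098) were the highest. The 12 progenitors that met no other rule had a log2 ratio of the share of -0.19 over Lgr5 cells of a single rule. Of 77 members 0 passed the fold there, where 21.4% of all genes were higher and 17.6% lower.

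The ribosomal protein share was lower in cells with more UMIs of Alpi, the brush border alkaline phosphatase of enterocytes. The median share was 24.9% in cells with 0 Alpi UMIs, 22.6% with 1 (105 cells), 19.9% with 2 to 3 (43 cells), 19.4% with 4 to 7 (47 cells) and 16.3% with 8 or more (44 cells). Median depth was 17823 UMIs at 0 Alpi UMIs and between 25028 and 31769 UMIs in the other bins. Mitochondrially encoded UMIs were 8.45% in enterocytes and 7.57% in Lgr5 cells. Rpl12, part of the stalk base, was the lowest member at 2567 CPM in enterocytes and 4616 CPM in Lgr5 cells (-0.84), followed by Rpl36a (-0.81) and Rps19 (-0.75). Rpl10 (-0.25) and Rpl41 (-0.24) were near the top, and only Rps27l was above 0. Goblet cells were intermediate, with Rps20 (-0.57), Rpl13a (-0.55) and Rps2 (-0.54) lowest and Rps27l (0.24), Rpl41 (0.11) and Rpl10 (-0.011) highest. Their median share was 20.6% in the 29 cells that also met the cycling rule and 20.3% in the other 100.

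Stem cells and cycling cells differed little, and in one direction. Of the 497 Lgr5 cells, the 317 that did not meet the cycling rule had a median share of 29.0% and the 180 that did had 26.2%; cycling cells outside the Lgr5 rule had 24.3% (457 cells). Along Lgr5 the median share was 21.3% at 0 UMIs, 26.5% at 1 to 2, 28.1% at 3 to 5 and 27.8% at 6 or more. Median depth in these bins was 15366, 20761, 21347 and 28402 UMIs. Most cells of each other class fell in the bins under 3 Lgr5 UMIs. The parts of depth and of the mix of classes were not tested. No member differed between cycling and Lgr5 cells by 1.5 times. Rps27l (0.22), Rpl41 (0.077) and Rpl27 (0.044) were the highest, and these were the only members above 0; Rps27 (-0.21), Rps9 (-0.20) and Rpl36a (-0.20) were the lowest. A few Lgr5 cells were rich in defensins, the antimicrobial peptides of Paneth cells. The 14 Lgr5 cells with at least 5% defensin UMIs had a median ribosomal protein share of 13.2%, and 8 of the 12 Lgr5 cells under 15% were among them. Without these 14 cells every class stood slightly further below Lgr5 cells, with log2 ratios of -0.16 in cycling, -0.33 in Neurog3, -0.81 in Tph1, -0.41 in goblet, -0.59 in enterocyte and -0.24 in lymphocyte cells.

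Within the family, most members kept their share. As a percent of all ribosomal protein UMIs, the median member differed from its Lgr5 value by 0.039 on the log2 scale in cycling cells, 0.036 in Neurog3 progenitors, 0.10 in Tph1 cells, 0.057 in goblet cells, 0.071 in enterocytes and 0.16 in lymphocytes, signs left aside. The members that differed by at least 1.5 times numbered 0 in cycling cells, 0 in Neurog3 progenitors, 1 in Tph1 cells, 1 in goblet cells, 1 in enterocytes and 3 in lymphocytes. The 1 gene in Tph1 cells, goblet cells and enterocytes was Rps27l, and the 3 in lymphocytes were Rps27l, Rps27 and Rps2. In cells of a single rule there were 3 in Tph1 cells (Rps27l at 0.98, Rplp1 at 0.84 and Rpl41 at 0.59 on the log2 scale) and 4 in lymphocytes, with Rpl15 at -0.60 added. By the range of the log2 share over the 7 classes, Rps27l was the widest at 1.94, and Rps27 at 0.95, Rps2 at 0.81, Rpl7a at 0.61 and Rpl41 at 0.58 were also among the 6 widest.

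Rps27l and Rps27 are paralogs that encode nearly identical small subunit proteins, and Rps27l is known as a target of p53. Rps27l made up 0.219% of ribosomal protein UMIs in cycling cells, 0.198% in Neurog3 progenitors, 0.261% in Tph1 cells, 0.264% in goblet cells, 0.334% (0.322 to 0.347) in enterocytes and 0.0875% (0.0693 to 0.109) in lymphocytes, against 0.173% (0.169 to 0.177) in Lgr5 cells. Every epithelial class was thus above Lgr5 cells and lymphocytes were below, with no overlap of counting intervals. In CPM, Rps27l stood at 612 in enterocytes and 461 in Lgr5 cells (log2 ratio 0.40), and at 204 in lymphocytes (-1.14). Its share of the family went up along Alpi, at 0.215% with 0 UMIs, 0.259% with 1, 0.330% with 2 to 3, 0.307% with 4 to 7 and 0.370% with 8 or more in order, with a dip at 4 to 7. Along Lgr5 it went down, at 0.269% with 0 UMIs, 0.210% with 1 to 2, 0.176% with 3 to 5 and 0.171% with 6 or more. Depth and the mix of classes differed along these bins too, and their part was not tested.

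Rps27 parted from Rps27l in lymphocytes and also in enterocytes. As log2 ratios of the family share over Lgr5 cells, Rps27 had 0.86 in lymphocytes and -0.0060 in enterocytes, and Rps27l had -0.98 and 0.95. Rps27 made up 0.655% of ribosomal protein UMIs in cycling cells, 0.701% in Neurog3 progenitors, 0.743% in Tph1 cells, 0.755% in goblet cells, 0.694% in enterocytes and 1.27% (1.197 to 1.34) in lymphocytes. In Lgr5 cells it made up 0.697% (0.689 to 0.706). The epithelial classes lay within 0.655 to 0.755%, and lymphocytes stood alone. In CPM it stood at 2956 in lymphocytes and 1858 in Lgr5 cells, a log2 ratio of 0.67, and it was the 1 member higher by the fold in that class. In the 89 lymphocytes that met no other rule the log2 ratios over Lgr5 cells of a single rule were 0.75 for Rps27 and -1.50 for Rps27l. Over the 19 lymphocytes with at least 1000 ribosomal protein UMIs, the median share per cell was 0.988% for Rps27 and 0.0635% for Rps27l, against 0.695% and 0.160% over 490 Lgr5 cells. In the 5 lymphocytes with 10000 to 40000 UMIs these signs were not kept: Rps27 had a log2 ratio of -0.25 over Lgr5 cells of the same depth, and the family share of Rps27l had 0.076. Rps27rt, a retrocopy of Rps27 outside the symbol rule, had 106 CPM in lymphocytes and 63.1 CPM in Lgr5 cells. Reads that match both copies could be assigned to either or dropped, so the split between these near-identical genes is uncertain. Of the windows shown above, that of Rps27 holds CTTTC at 2 places and that of Rps27l holds neither motif.

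**Figure D4:**
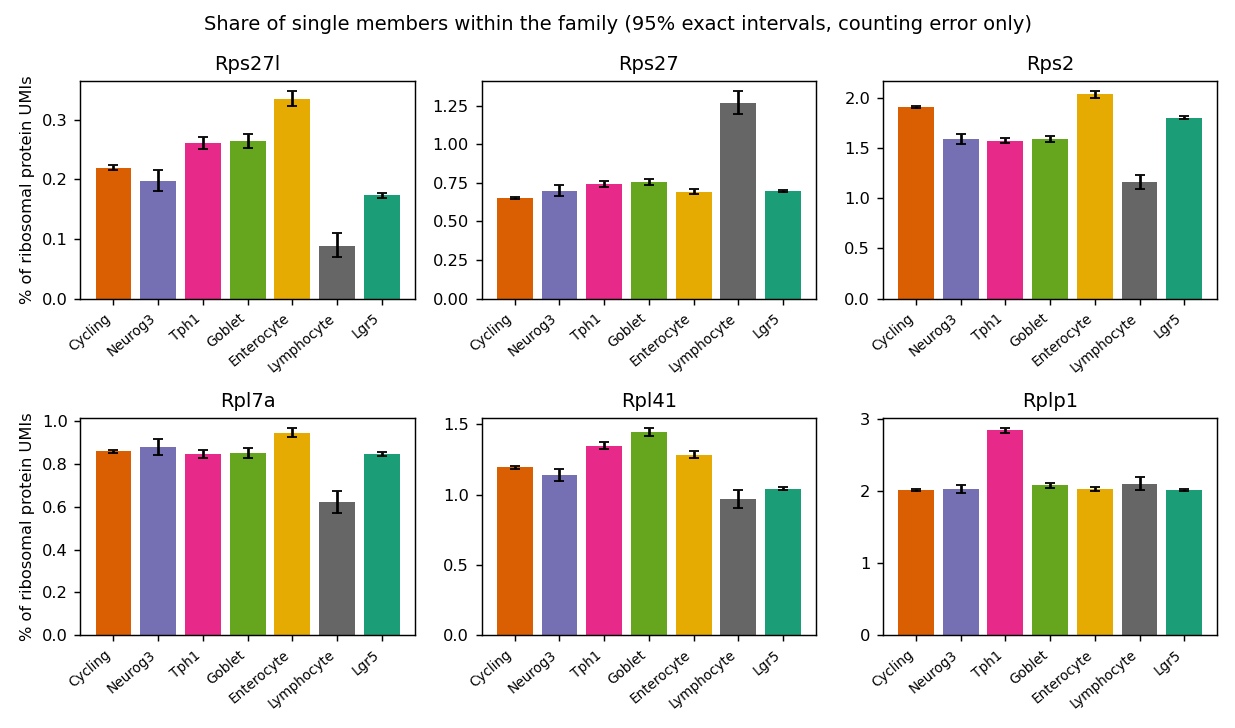
Share of 6 members among all ribosomal protein UMIs in the 6 classes and, at the right, Lgr5 cells; bars are summed UMIs and error bars exact 95% intervals for counting error. Rps27l is highest in enterocytes (0.334%) and lowest in lymphocytes (0.0875%), Rps27 is highest in lymphocytes (1.27%), and Rplp1 is highest in Tph1 cells (2.84%).

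Lymphocytes differed most from stem cells in the makeup of the family, by a median of 0.16 on the log2 scale of the family share. By CPM, 5 of 77 members were lower by at least 1.5 times, where 20.4% of all genes were, so this count was below the background. Among the 5 were Rps27l (-1.14), Rps2 (-0.83), Rpl15 (-0.69) and Rpl7a (-0.64). Rps27 (0.67), Rps24 (0.23) and Rpl37a (0.22) led the other end. Rps2 had 2700 CPM in lymphocytes and 4809 CPM in Lgr5 cells. Rpl15, a core large subunit protein, had 2442 CPM in lymphocytes and 3957 CPM in Lgr5 cells. Rps24 had 6494 CPM in lymphocytes and 5545 CPM in Lgr5 cells. Epithelial transcripts were present in this class as well: Olfm4 was at 903 CPM and the granin Chgb at 4075 CPM in lymphocytes, against 8334 and 1734 CPM in Lgr5 cells. Of the 95 lymphocytes, 6 met another rule. The part of transcripts from other cells in the lymphocyte values was not tested.

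B and T cells within the class had different shares. The 49 cells with at least 2 UMIs of B cell markers (Cd79a, Cd79b, Ms4a1) and 0 of T cell markers (Cd3e, Cd3g, Cd3d, Cd8a, Trac) had a median ribosomal protein share of 30.4%, and the 31 cells with the reverse had 20.2%, at median depths of 2742 and 3136 UMIs. The middle 50% of cells spanned 26.4 to 32.1% in B cells and 18.6 to 24.3% in T cells, which did not overlap. The B cell median thus lay above the Lgr5 median of 27.9%, which was within the middle 50% of B cells. Lgr5 cells that met no other rule had a median of 29.3%, also within it. Lgr5 cells were deeper, at a median of 24495 UMIs, and the part of depth was not tested. Of the 77 members, 6 made up a higher share of the family in B cells and 9 a higher share in T cells with counting intervals apart. The same was not counted over all genes, so these counts have no background to be read against. Rps19 made up 1.79% (1.67 to 1.91) in B cells and 1.06% (0.925 to 1.22) in T cells, and Rps20 made up 2.54% (2.40 to 2.68) in B cells and 1.51% (1.35 to 1.69) in T cells. Rpl38 made up 0.731% (0.659 to 0.809) in B cells and 1.06% (0.920 to 1.21) in T cells, and Rplp1 made up 1.92% (1.80 to 2.04) in B cells and 2.58% (2.36 to 2.81) in T cells. Rps27 did not separate them, at 1.34% (1.245 to 1.45) in B cells and 1.42% (1.26 to 1.596) in T cells; these genes were named after their values were seen.

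Some ribosomal proteins have other tasks, and 3 of them are given here, chosen for their role. Rpl5 and Rpl11, which with 5S RNA can bind and inhibit Mdm2, had log2 ratios of -0.86 and -0.68 in Tph1 cells and -0.62 and -0.49 in enterocytes; in the 12 Neurog3 cells of a single rule, Rpl5 was the highest member at 0.14. Rps27a, made as a fusion with ubiquitin, had -0.72 in Tph1 cells and -0.56 in enterocytes. Other genes of ribosomal proteins that the symbol rule leaves out were all below their Lgr5 level in Tph1 cells where named here, to different degrees. Rps3a1 had -0.69 in Tph1 cells and -0.56 in enterocytes. Rack1, a scaffold on the small subunit, had -0.88 and -0.57. Fau, a ubiquitin-like fusion with a small subunit protein, had -0.41 in Tph1 cells and 0.10 in enterocytes, and in lymphocytes it had 5135 CPM against 3088 CPM in Lgr5 cells (0.73). The paralogs Rpl22l1, Rpl7l1 and Rpl36al had -0.66, -0.23 and -0.21 in Tph1 cells and -0.38, 0.023 and 0.14 in enterocytes.

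Other gene lists of the translation machinery moved with the family to different degrees. These lists were written with earlier results of these data known, and a list's count is to be read against the share of all genes past the same fold, repeated here where lists are near it. Lower by 1.5 times were 5.83% of all genes in Tph1 cells, 5.92% in goblet cells, 15.3% in enterocytes and 20.4% in lymphocytes. Of 18 translation factors and other TOP mRNAs, 12 were lower by 1.5 times in Tph1 cells, 6 in enterocytes, 5 in goblet cells and 6 in lymphocytes, and 0 were higher in any class. Their median log2 ratio was -0.68 in Tph1 cells and -0.50 in enterocytes, close to that of the ribosomal proteins. Eef1a1, the elongation factor that brings aminoacyl-tRNA to the ribosome, had 4814 CPM in Tph1 cells and 7314 CPM in Lgr5 cells (-0.60), and Tpt1 had -0.47 in Tph1 cells. Of 40 ribosome biogenesis genes, 28 were lower in enterocytes (median -0.78), 20 in lymphocytes (median -0.60), 11 in Tph1 cells (median -0.41), 2 in goblet cells and 1 in Neurog3 progenitors, and 0 were lower in cycling cells. Enterocytes were thus lower than Tph1 cells in biogenesis genes and higher in ribosomal protein genes. These sums include the 100 Tph1 cells at or above the 15% line, and the lists were not recounted in cells of a single rule. The nucleolar protein Ncl had 392 CPM in enterocytes and 718 CPM in Tph1 cells, against 1154 CPM in Lgr5 cells (-1.53 and -0.68), and Nop10 had -0.36 in enterocytes and -0.50 in Tph1 cells. Fibrillarin (Fbl), named in addition, had 89.2 CPM in enterocytes and 121 CPM in Tph1 cells, against 206 CPM in Lgr5 cells.

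RNA polymerase I makes the precursor of ribosomal RNA, and 7 of the 14 genes of its list were lower in enterocytes, 5 in lymphocytes, 2 in goblet cells, 1 in Tph1 cells and 1 in Neurog3 progenitors, and 1 was higher in lymphocytes. Polr1d and Taf1d, those with most UMIs, had -0.13 and -0.75 in enterocytes and -0.31 and -0.83 in Tph1 cells. Of 24 Myc and mTOR pathway genes, 3 were lower and 1 higher in enterocytes, 2 lower and 2 higher in Tph1 cells, and 4 lower and 5 higher in lymphocytes. Of all genes, 15.3% were lower and 11.9% higher in enterocytes, 5.83% and 18.6% in Tph1 cells, and 20.4% and 19.2% in lymphocytes. The counts of lower genes and both lymphocyte counts are near this background. The counts of higher genes in enterocytes and Tph1 cells are below it. Lamtor2 had 0.43 in enterocytes and 0.10 in Tph1 cells, and Larp1, the TOP mRNA binding protein, had -0.57 and -0.19. Myc, a transcription factor that drives ribosome biogenesis, was at 8.03 CPM in enterocytes, 20.3 CPM in Tph1 cells and 77.4 CPM in lymphocytes, against 60.2 CPM in Lgr5 cells. Of 77 mitochondrial ribosomal proteins tested, 8 were higher and 0 lower in enterocytes, where 11.9% of all genes were higher and 15.3% lower, so the count of higher genes was not above the background. In Tph1 cells 0 were higher and 2 lower, and in lymphocytes 0 were higher and 35 lower. Mrpl12 had 435 CPM in enterocytes and 210 CPM in Tph1 cells, against 291 CPM in Lgr5 cells, and Mrpl52 had -0.15 and -0.032. Of 14 proteasome core genes, 1 was higher in enterocytes, 4 were lower in lymphocytes and 0 passed the fold in Tph1 cells, where Psma7 had -0.025 and Psmb1 had -0.042.

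**Figure D5:**
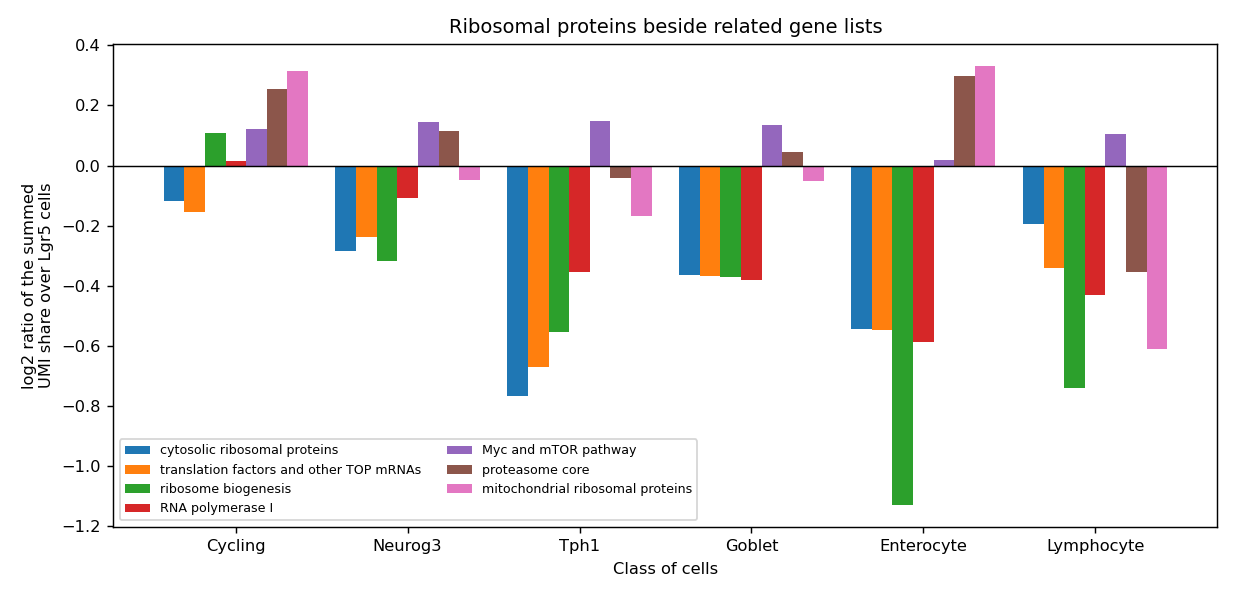
Log2 ratio over Lgr5 cells of the summed UMI share of the cytosolic ribosomal protein genes and of 6 related lists in each of the 6 classes. Translation factors and other TOP mRNAs follow the ribosomal proteins, ribosome biogenesis genes reach -1.13 in enterocytes, and mitochondrial ribosomal proteins stand at 0.33 in enterocytes and -0.17 in Tph1 cells.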

How the data were processed

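Droplet-based 3′ gene expression and hashtag antibodies were measured in cells of 1 mouse. The authors deposited raw counts of UMIs per gene for 2335 cells and a matrix of 11248 barcodes, and 0 entries differed between them; raw counts were used throughout. The submitters' processing notes name Cell Ranger and Seurat and no versions, and the header of the matrix records 3.1.0 as its software version. No source used here gives the rule by which cells were kept. The notes name a human build whereas gene identifiers are mouse, so coordinates come only from RefSeq promoter windows. Hashtag counts placed a cell in a tag pair when that pair had 3 or more times the counts of the other pair (987 cells in tags 1 and 2, 411 in tags 3 and 4, 937 in neither).

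UMIs were summed per class. Member ratios are log2 of CPM + 10 over Lgr5 cells, and family ratios are log2 of summed shares without a pseudocount. Counting at the 3′ end does not measure length, and reads shared by near-identical copies may be lost. Members, classes and lists were chosen with earlier results of these data known, as were the added values for lineage subsets. Named are, per class, the 3 highest and 3 lowest members with at least 500 UMIs over the classes, the 6 members with the widest range of family share, paralogs and near symbols outside the rule, and the 2 genes of each list with most UMIs. Genes named for their role or for passing a fold were added after values were seen. Scrublet in scanpy 1.11.5 marked 2 cells (0.0857%) at its own threshold, so it was used for ranking and no cell was removed. Python 3.11.15, numpy 2.4.6, pandas 2.3.3, scipy 1.17.1 and matplotlib 3.10.9 were used, and the fold counts were tested on simulated data. A few genes that these rules name are not reported here. Alternatives changed the cells, depth, denominator, thresholds, fold, pseudocount and averaging.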

Additional observations from a re-analysis of the deposited data

Results flagged for a closer look

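Signal outside the comparisons appeared in 2 places. The 8913 barcodes that the authors left out of their table held ribosomal protein UMIs at 17.6% of all their UMIs, against 23.1% in the kept cells. Their share went down with the mitochondrial share of a barcode, at 20.7% between 12.5 and 25% mitochondrial UMIs, 15.3% between 25 and 50%, 6.61% between 50 and 75% and 4.32% above 75%. With mitochondrial UMIs taken out of the total, the 4 values were 25.2, 23.1, 17.5 and 21.7%, against 24.9% in kept cells.

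Symbols with -ps, the annotated pseudogenes of ribosomal proteins, held 5194 UMIs in the kept cells over 9 symbols, or 0.0438% of the UMIs of the members. They were at 74.9 CPM in Tph1 cells and 80.3 CPM in enterocytes, against 111 CPM in Lgr5 cells.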

How the results depend on the processing

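The family log2 ratio over Lgr5 cells stayed below 0 in all 6 classes under every alternative run, with 1 exception: within tags 3 and 4 the 2 Neurog3 cells stood at 0.11. Values that moved by more than counting error are given in the order cycling, Neurog3, Tph1, goblet, enterocyte and lymphocyte, or with class names where fewer moved. With cells of 1 rule only they were -0.17, -0.19, -1.22, -0.40, -0.62 and -0.21. With mitochondrial genes out of the total they were -0.30 (Neurog3), -0.80 (Tph1), -0.39 (goblet), -0.53 (enterocyte) and -0.24 (lymphocyte). With mitochondrial and 129 leading genes out of the total they were -0.15, -0.30, -0.74, -0.29, -0.49 and -0.22. In cells of 10000 to 40000 UMIs they were -0.17, -0.40, -0.90, -0.46, -0.68 and -0.43. With class thresholds doubled they were -0.13, -0.22, -0.80, -0.42, -0.62 and -0.26. With the mean share per cell they were -0.17, -0.50, -1.11, -0.48, -0.62 and -0.15. Within tags 1 and 2 they were -0.082, -0.23, -0.83, -0.37, -0.50 and -0.31. Within tags 3 and 4 they were -0.082, 0.11, -0.30, -0.19, -0.43 and -0.12. Without the top 6% by doublet score they were -0.12, -0.38, -1.26, -0.38, -0.58 and -0.21. With 937 left-out barcodes within the limits of kept cells added they were -0.12 (cycling), -0.37 (Neurog3), -0.81 (Tph1), -0.40 (goblet) and -0.60 (enterocyte). With the median share per cell they were -0.16 (cycling), -0.43 (Neurog3), -1.49 (Tph1), -0.45 (goblet) and -0.56 (enterocyte). Over Lgr5 cells that were not cycling they were -0.15, -0.32, -0.80, -0.39, -0.57 and -0.22. Over Lgr5 cells with under 5% defensin UMIs they were -0.16, -0.33, -0.81, -0.41, -0.59 and -0.24. The last 3 alternatives were chosen after seeing the data. Tph1 cells were the lowest class under all of these except within tags 3 and 4, where enterocytes were. Counts of lower members, of 77, changed by over 1.5 times as follows, with the share of all genes lower at that setting in brackets. At a fold of 2 they were 4 in Tph1 cells (1.08%), 0 in enterocytes (5.06%) and 1 in lymphocytes (9.08%). At that fold 0 were higher in lymphocytes, where 9.74% of all genes were. With cells of 1 rule only they were 5 in goblet cells (10.2%) and 46 in enterocytes (16.9%). At 10000 to 40000 UMIs they were 3 in Neurog3 (7.88%), 8 in goblet (12.1%), 55 in enterocyte (20.9%) and 14 in lymphocyte cells (25.9%). Of the lymphocytes 5 were left, and 0 members were higher there, where 21.6% of all genes were. Without the top 6% by doublet score they were 4 in Neurog3 (7.66%) and 1 in goblet cells (6.6%). With mitochondrial and leading genes out of the total they were 11 in enterocytes (16.6%). Apart from the 4 in Tph1 cells and the 46 and 55 in enterocytes, these counts were not above that share. The remaining 82 counts stayed within 1.5 times. The share of all genes could still move: with a pseudocount of 1 CPM, 29 members were lower in enterocytes, where 32% of all genes were. Of ratios of single members, 265 kept side and sign, 15 gained and 7 lost the fold, and Rps27 in lymphocytes reversed to -0.25 at 10000 to 40000 UMIs; of family shares 102 kept both, 2 gained and 3 lost the fold, and Rps27l in lymphocytes reversed to 0.076 at that depth. The causes were not tested. An alternative that adds genes outside the symbol rule is not run here. No paired analysis was possible because there was 1 library and no replicate.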
